A study of Mus musculus with 46 samples.

Results

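Leptin was compared between 2 kinds of neurons of the arcuate nucleus by asking, gene by gene, whether the leptin-against-fasted change in AgRP neurons differed from that in POMC neurons. The comparison used 12 of the 46 samples of the series, chosen by their labels alone as the fasted and leptin-treated ribosome-bound RNA libraries of both lines: 4 fasted and 4 leptin libraries from AgRP neurons, and 2 fasted and 2 leptin libraries from POMC neurons. All 12 came from male mice that carried the NuTRAP cassette, which expresses a GFP-tagged L10a ribosomal subunit and mCherry-tagged RANGAP once Cre has removed a stop sequence. The tag was switched on by AgRP-IRES-Cre in the line NuTRAPAgRP and by POMC-IRES-Cre in the line NuTRAPPomc, so that what was recovered depends on where each Cre had been active. For the AgRP mice, every library pooled the arcuate nuclei of 4 mice aged 6 to 11 weeks. Both states were fasted overnight, for 18 to 20 hours in the AgRP mice. The leptin groups then received leptin at 5 mg/kg by intraperitoneal injection, the fasted groups received vehicle, and tissue was taken 3 hours later. Pool size, age, length of the fast, dose and time are stated for the AgRP mice and not separately for the POMC mice, which the labels describe as male, fasted overnight and, where treated, given leptin. No separate cohort is named for any library. The p-values measure the spread of the differences between same-numbered fasted and leptin libraries of a line, and not that between separate cohorts. A shared spread was fitted over both lines, so that p-values for POMC neurons and for the difference also rest on the AgRP pairs.

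AgRP neurons release AgRP, NPY and GABA and drive feeding, whereas POMC neurons cleave pro-opiomelanocortin into melanocortin peptides that restrain it. Both express the leptin receptor, which works through the kinase JAK2 and the transcription factor STAT3, and STAT3 in turn switches on Socs3, whose protein inhibits the receptor complex. In electrical recordings leptin is known to silence AgRP neurons and to excite many POMC neurons.

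The difference between the lines was estimated for 13446 of the 31854 genes in the count table, those whose mean over the 4 groups exceeded 1 count per 1000000 reads (CPM, scaled by the TMM method). In edgeR's quasi-likelihood model each pair of same-numbered fasted and leptin libraries of a line formed a block, which left 6 blocks, 1 leptin term for each line and 4 residual degrees of freedom. Interaction values are log2 fold changes in AgRP neurons minus those in POMC neurons, with the standard error (SE) and the false discovery rate (FDR, Benjamini-Hochberg over all genes tested), and a gene was called at an FDR under 0.05 with an absolute log2 fold change over 0.5. The lines shared a spread and differed in their number of pairs. Precision was unequal: the median SE was 0.076 in AgRP neurons, 0.110 in POMC neurons and 0.134 for their difference. Since these are bulk samples, fewer tagged cells and less RNA per cell cannot be told apart.

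Libraries held between 29901460 and 54511107 counts, so that 3 counts corresponded to between 0.054 and 0.108 CPM. The marker genes matched the labels. The summed level of 9 AgRP neuron markers was 2265 to 6525 CPM in the AgRP libraries and 153 to 203 CPM in the POMC libraries, whereas 10 POMC neuron markers summed to 2022 to 2749 CPM in the POMC libraries and 390 to 475 CPM in the AgRP libraries. Replicate 4 of the AgRP line and replicate 2 of the POMC line stood apart in both states. The glutamate transporter Slc1a2, an astrocyte gene, was at 2369, 2867, 2365 and 25687 CPM in the fasted and 3685, 2628, 3201 and 25108 CPM in the leptin AgRP libraries, and at 6157 and 26762 CPM in the fasted and 5178 and 26371 CPM in the leptin POMC libraries, with the excess in those 4 libraries alone. The highest sums of 10 astrocyte markers were 26947 CPM fasted and 26453 CPM after leptin in AgRP libraries. In POMC libraries they were 28323 and 28029 CPM. Slc1a2 held nearly all of these sums, so the size of the excess describes Slc1a2 and not the other markers. The excess of Slc1a2 was present in both libraries of each pair, and 0 of 10 astrocyte markers were called by edgeR, DESeq2 or limma-voom for the interaction, with 0 at an unadjusted p under 0.05.

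**Figure D1:**
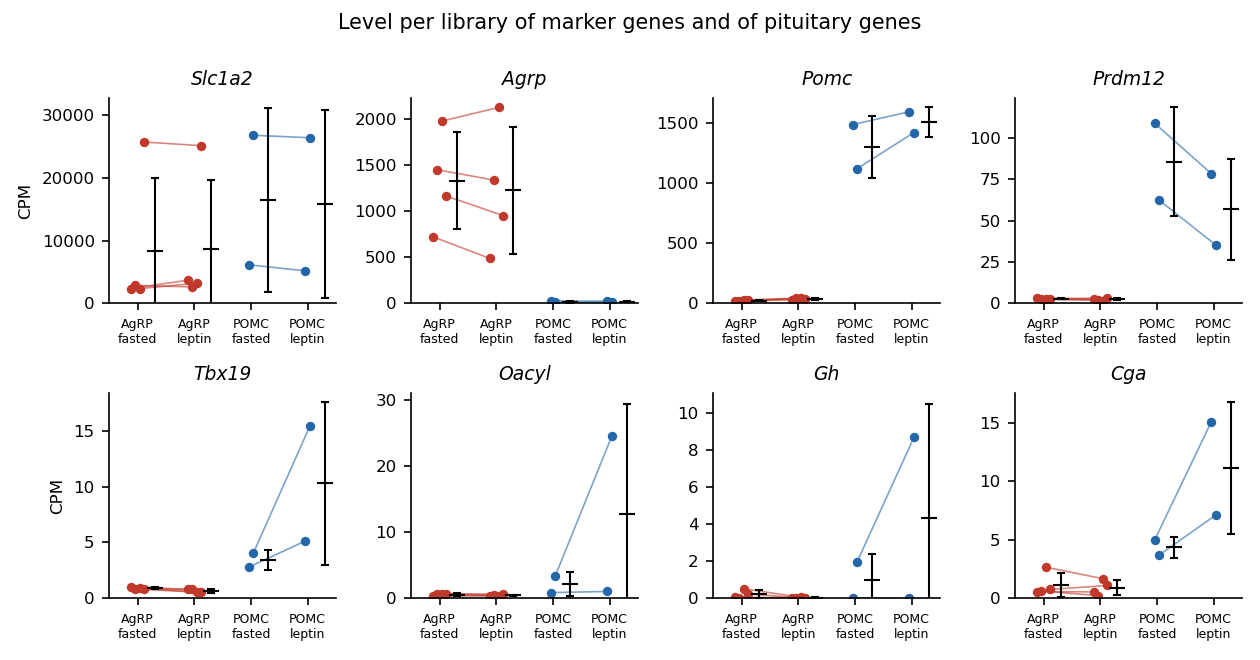
TMM-scaled CPM (vertical axis) per library of 8 genes in fasted and leptin AgRP (red, n = 4) and POMC (blue, n = 2) libraries, with lines joining same-numbered libraries and black marks for the mean with its SD, drawn down to 0 at the lowest. Slc1a2 lies between 25108 and 26762 CPM in both states of AgRP replicate 4 and POMC replicate 2, Agrp and Pomc separate the lines, and the rise of Oacyl and Gh in POMC neurons is carried by 1 pair, from 3.38 to 24.5 CPM and from 1.98 to 8.68 CPM.

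Because STAT3 binds a palindrome of TTCNNNGAA and the cyclic AMP response element core is TGACGTCA, promoter windows of the members were searched for these letters and for GAAANNGAA, which interferon regulatory factors bind, on both strands. A RefSeq window (GRCm38.p6) reached from 250 bases before to 50 after a start site, and of all 32851 such windows 8.3% held the first, 1.79% the second and 8.56% the third motif. A gene can have several windows, and of the 9946 genes tested with any window 8.26%, 3.57% and 8.24% held these motifs in at least 1 of them. The 5 genes that leptin raised in both lines all had a window, and Socs3, Sbno2 and Etv6 held the palindrome. Of 31 genes raised selectively in AgRP neurons 18 had a window, and Steap4, Gcnt2 and Ubash3b held it. Of 33 genes lowered selectively in AgRP neurons 29 had a window, and Gpr6, Errfi1, Plk2 and Stk38l held the cyclic AMP response element core, which no window of the other 2 sets did, and Kcnab1 held the palindrome. The third motif, GAAANNGAA, stood in Etv6 and Sbno2 among the first group and in Soga3 and Ubash3b among the second. In the third group it stood in Kcnab1, Lurap1l, Noct, Plk2 and Vldlr. The following stretches are shown so that the windows of genes with shared, selective higher and selective lower responses can be read side by side, with the motif in capitals within up to 40 bases on either side, 5′ to 3′ on the strand of the gene.
Socs3 chr11:117969472-117969560 minus strand: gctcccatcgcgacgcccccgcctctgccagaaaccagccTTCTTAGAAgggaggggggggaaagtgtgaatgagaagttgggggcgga
Sbno2 chr10:80102680-80102768 minus strand: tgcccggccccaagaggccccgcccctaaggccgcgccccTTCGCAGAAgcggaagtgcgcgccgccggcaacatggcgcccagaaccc
Sbno2 chr10:80101163-80101251 minus strand: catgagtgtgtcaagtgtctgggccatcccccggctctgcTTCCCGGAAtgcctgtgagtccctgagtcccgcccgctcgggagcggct
Etv6 chr6:134035681-134035729 plus strand: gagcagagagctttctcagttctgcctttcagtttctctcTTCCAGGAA
Steap4 chr5:7960316-7960404 plus strand: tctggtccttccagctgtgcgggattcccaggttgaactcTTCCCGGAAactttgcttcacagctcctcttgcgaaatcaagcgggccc
Gpr6 chr10:41072321-41072408 minus strand: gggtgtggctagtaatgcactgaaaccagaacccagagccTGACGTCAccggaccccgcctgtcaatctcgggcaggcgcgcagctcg
Errfi1 chr4:150854979-150855066 plus strand: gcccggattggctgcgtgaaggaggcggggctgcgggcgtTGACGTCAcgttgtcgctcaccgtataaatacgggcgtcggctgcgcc
Plk2 chr13:110394942-110395029 plus strand: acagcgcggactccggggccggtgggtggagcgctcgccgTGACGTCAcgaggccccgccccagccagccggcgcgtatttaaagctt
A match describes these letters in this window and is not a measured binding site.

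The leptin effect was called different between the lines for 87 genes. It was higher in AgRP neurons for 37 genes (0.275% of those tested) and lower for 50 genes (0.372%). Before adjustment 497 genes were higher and 782 lower at p under 0.05. In these genes, Gh apart, the 4 AgRP pair differences all lay on one side of both POMC pair differences, as 7.97% of all genes tested did upwards and 11.2% downwards. The same pair differences made the calls, so this describes them and is no further support. These counts rest on the pairing and on both POMC pairs. With no replicate block 3 genes were called higher (Rdh10, Gpr151 and Il10ra) and 0 lower, and with the block DESeq2 called 75 and 91. Without either library of POMC replicate 2, which leaves 1 POMC pair that is assumed to vary like the AgRP pairs, 1 gene was called in each direction, and without both pairs that stood apart 32 were called higher and 35 lower, among them 18 of the 37 and 18 of the 50 genes.

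Each gene was then placed by its own contrasts. Within AgRP neurons leptin raised 235 genes (1.75% of those tested) and lowered 137 (1.02%), and within POMC neurons it raised 11 (0.0818%) and lowered 0 (0%). No gene was called lower in POMC neurons by limma-voom either, DESeq2 called 3, and 334 genes were lower there at an unadjusted p under 0.05. Of the 37 genes with a higher effect in AgRP neurons, 31 were called higher in AgRP and not in POMC neurons, Sbno2 was called higher in both lines, and 5 were called in neither line alone (Dst, Plec, Med13l, Macf1 and Dusp26). Of the 50 genes with a lower effect, 33 were called lower in AgRP neurons, 2 were called higher in POMC and not in AgRP neurons with separated pairs (Tbx19 and Rasl11a.2), Gh was called higher in POMC neurons with overlapping pairs, and 14 were called in neither line alone. No gene was called in opposite directions in the lines by edgeR, DESeq2 or limma-voom, 60 genes had opposite signs with an unadjusted p under 0.05 in each, and 6 were called in opposite directions without both pairs that stood apart.

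**Figure D2:**
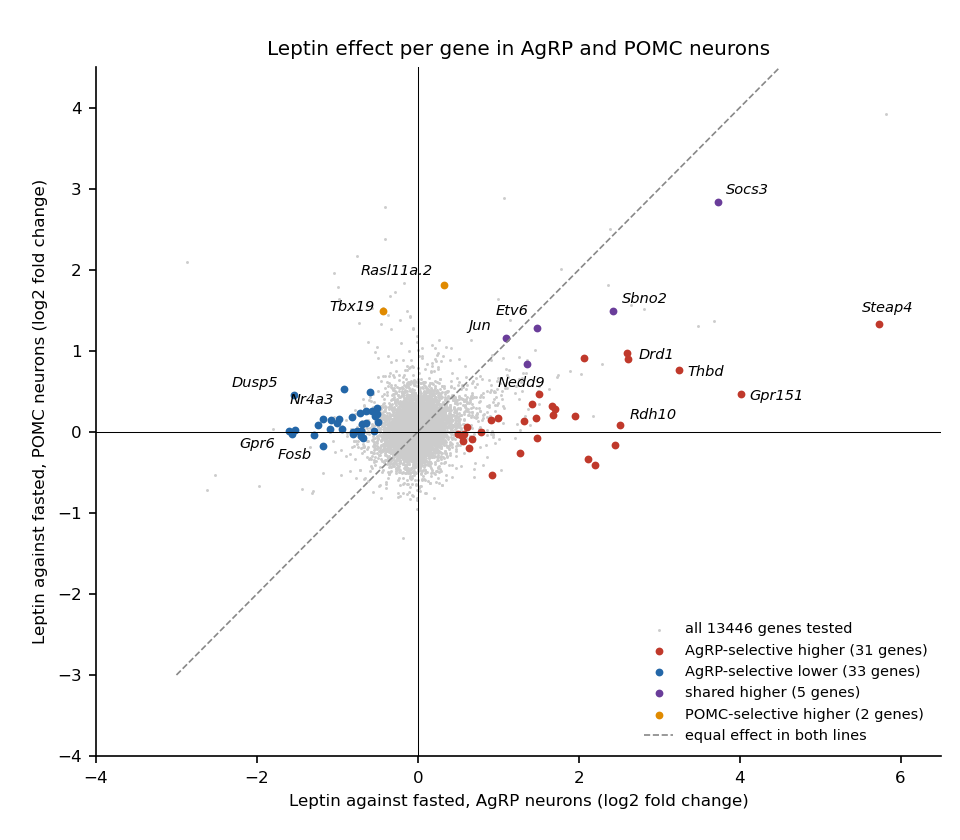
Log2 fold change for leptin against fasted in POMC neurons (vertical axis) against that in AgRP neurons (horizontal axis) for the 13446 genes tested, with the classes in colour. The dashed line marks an equal effect in both lines. The genes called in both lines run from Jun (1.09 and 1.15) to Socs3 (3.73 and 2.84), whereas Rdh10 (2.51 and 0.087) and Gpr6 (-1.60 and 0.011) lie near a POMC value of 0.

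In both lines 5 genes were called higher, namely Socs3, Sbno2, Etv6, Jun and Nedd9. Socs3 (chr11:117966079-117970047, minus strand, GRCm38), the feedback inhibitor of leptin receptor signaling, was at 2.70, 2.46, 2.36 and 1.69 CPM in the 4 fasted AgRP libraries and at 35.4, 30.01, 34.8 and 22.5 CPM after leptin. In POMC neurons it was at 1.47 and 1.66 CPM fasted and 12.8 and 9.35 CPM after leptin. Fasted and leptin libraries did not overlap in either line, and the leptin level was higher in every AgRP library than in either POMC library. The log2 fold change was 3.73 in AgRP neurons (FDR 4.97e-09) and 2.84 in POMC neurons (FDR 4.67e-05), and their difference of 0.89 (SE 0.23, 95% interval 0.38 to 1.41) did not pass (FDR 0.141). The POMC call for Socs3 held with each library left out in turn, with a highest FDR of 0.00345.

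Sbno2 (chr10:80056992-80105571, minus strand), a transcriptional coregulator induced by cytokines that act through STAT3, rose in both lines and by more in AgRP neurons. Its fasted levels were 13.7, 13.6, 12.6 and 14.4 CPM in AgRP and 9.31 and 8.86 CPM in POMC neurons, and its leptin levels were 78.7, 64.4, 82.8 and 67.2 CPM and 30.4 and 21.1 CPM. Every AgRP library lay above every POMC library of the same state, by a wider margin after leptin. The changes were 2.43 and 1.49 on the log2 scale, a difference of 0.94 (SE 0.18, FDR 0.0408), which passed in 4 of 12 fits with 1 library left out. Because a library whose partner is left out no longer informs the leptin terms, the 12 fits amount to about 6 removals of a pair.

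The 3 other shared genes had differences that did not pass. Etv6 (chr6:134035700-134270158, plus strand), an ETS family repressor, changed by 1.49 in AgRP and 1.28 in POMC neurons, with a difference of 0.20 (95% interval -0.19 to 0.59, FDR 0.802). Its fasted POMC libraries were at 10.3 and 15.8 CPM and its leptin POMC libraries at 30.4 and 32.0 CPM, beside 13.5, 11.7, 11.3 and 15.4 and 43.2, 33.7, 33.5 and 34.4 CPM in AgRP neurons. Jun (chr4:95049034-95052222, minus strand), a subunit of AP-1, changed by 1.09 and 1.15, with a difference of -0.061 (95% interval -0.46 to 0.34). Nedd9 (chr13:41309581-41487362, minus strand), a focal adhesion scaffold protein, changed by 1.35 and 0.84, with a difference of 0.51 (95% interval 0.17 to 0.85). Antisense or other genes overlap Etv6, Jun (Junos) and Nedd9 in the annotation, and the tagmentation kit does not mark strand, so that their reads may be counted together. Without either library of POMC replicate 1 Socs3 alone was called in both lines. DESeq2 called 21 genes in both lines, with Drd1, Tnfrsf11b, Arid5a, Socs2, Atf3 and Irf9 among them, and 18 were called by edgeR without both pairs that stood apart.

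The difference between the lines with the lowest FDR was that of Rdh10. Rdh10 (chr1:16105774-16133734, plus strand), which oxidizes retinol in the synthesis of retinoic acid, was at 15.1, 12.6, 12.7 and 12.7 CPM in the fasted AgRP libraries and at 92.8, 70.4, 84.3 and 56.8 CPM after leptin. In POMC neurons it was at 14.1 and 11.1 CPM fasted and 15.5 and 11.4 CPM after leptin. The fasted levels of the lines overlapped, and every leptin AgRP library lay above all others. The change was 2.51 in AgRP neurons (5.69-fold, FDR 2.86e-08) and 0.087 in POMC neurons (95% interval -0.20 to 0.38), a difference of 2.42 (SE 0.16, FDR 8.51e-05). It was 2.47 among AgRP replicates 1 to 3 and POMC replicate 1 and 2.12 in the pairs that stood apart. Among the named genes called for the interaction it alone kept its call in all 12 fits that left out 1 library, with a highest FDR of 0.00537, and it was also called with no replicate block.

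The receptor genes raised selectively in AgRP neurons included Gpr151, Drd1, Htr1a and Il10ra. Selectively means with a called difference and a call in AgRP neurons alone, and not that POMC neurons lacked a change. Gpr151, an orphan G protein-coupled receptor, was at 1.53, 1.02, 0.880 and 0.620 CPM fasted and 18.5, 15.2, 19.7 and 11.1 CPM after leptin in AgRP neurons, beside 0.862 and 1.15 and 1.36 and 1.42 CPM in POMC neurons. Fasted levels overlapped between the lines, and after leptin the lowest AgRP library was far above both POMC libraries, with a difference of 3.54 (SE 0.39, FDR 0.00265). Drd1 (chr13:54051183-54055705, minus strand), the dopamine receptor that couples to cyclic AMP production, rose from 6.90, 6.93, 4.74 and 5.27 CPM to 43.2, 34.2, 37.2 and 30.8 CPM in AgRP neurons. In POMC neurons its values were 7.07 and 8.50 CPM and 16.1 and 12.9 CPM, so that both leptin libraries lay above both fasted ones. The POMC change of 0.90 did not pass (FDR 0.129), and the AgRP change of 2.61 exceeded it by 1.71 (SE 0.21, FDR 0.00463). Htr1a, an inhibitory serotonin receptor, rose by 0.78 in AgRP neurons, from 26.0, 23.5, 24.6 and 34.2 CPM to 51.8, 40.0, 44.8 and 48.4 CPM, beside 34.3 and 37.5 and 30.3 and 42.1 CPM in POMC neurons, whose pairs moved in opposite directions (difference 0.79, FDR 0.0401). Its interaction call was lost in 8 of 12 fits with 1 library left out, beside 2 for Gpr151, 2 for Drd1 and 6 for Il10ra. Il10ra, a chain of the interleukin-10 receptor, went from 1.05, 0.635, 1.05 and 0.965 CPM to 4.44, 4.44, 4.13 and 3.596 CPM in AgRP neurons, beside 1.21 and 1.15 and 0.981 and 0.798 CPM in POMC neurons (difference 2.61, FDR 0.0137). Without the fasted library of POMC replicate 2 the FDR was 0.106 for Gpr151 and for Drd1 and 0.160 for Il10ra.

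Further members encode enzymes and cell surface or secreted proteins. Steap4 (chr5:7960457-7982213, plus strand), a metalloreductase induced by inflammatory cytokines, had a fitted difference of 4.40 (SE 0.81, FDR 0.0368) and passed the filter through its leptin AgRP level alone. Its CPM was 0.240, 0.366, 0.193 and 0.0344 in fasted and 18.4, 8.38, 17.1 and 5.26 in leptin AgRP libraries, and 0.546 and 0.216 and 0.808 and 1.20 in the POMC libraries, where these values stood for 19 and 6 fasted and 28 and 48 leptin counts. The fasted AgRP values stood for 8, 19, 9 and 1 counts, so that the size of the difference rests on few counts in 3 of the 4 groups, and the FDR reached 0.517 without POMC fasted replicate 1. Thbd, the thrombin-binding thrombomodulin, changed by 3.24 in AgRP and 0.77 in POMC neurons, whose leptin libraries disagreed at 13.2 and 6.73 CPM. Lipg, endothelial lipase, was raised by 2.11 in AgRP neurons with a POMC value of -0.34. Its interaction call was lost in 8 of 12 fits with 1 library left out, beside 6 for Thbd and 4 for Tnfrsf11b. Tnfrsf11b, the decoy receptor osteoprotegerin, had a higher fasted level in POMC neurons (7.36 and 8.25 CPM) than in AgRP neurons (1.29, 1.21, 1.29 and 0.689 CPM), and its POMC value of 0.98 did not pass (FDR 0.124) while the AgRP change of 2.60 exceeded it by 1.62.

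Other members act in the nucleus or in signaling. Nlrc5, which drives major histocompatibility class I genes, changed by 2.46 in AgRP neurons and was at 1.35 and 0.720 and 1.18 and 0.673 CPM in the POMC states (difference 2.61, FDR 0.0262). Parp3, an ADP-ribosyltransferase of DNA repair, differed by 1.76. Arid5a, an RNA-binding stabilizer of inflammatory transcripts, changed by 2.06 in AgRP neurons and by 0.91 in POMC neurons (95% interval 0.53 to 1.29, FDR 0.129). Its leptin POMC libraries at 10.3 and 9.90 CPM lay above the fasted ones at 5.14 and 5.65 CPM. Cul5, a scaffold of the ubiquitin ligases that SOCS proteins recruit, rose from 154, 139, 139 and 113 CPM to 518, 345, 473 and 230.3 CPM in AgRP neurons, beside 89.9 and 86.6 and 104 and 94.9 CPM in POMC neurons (difference 1.30, SE 0.18, FDR 0.00960). Gcnt2, a glycosyltransferase, differed by 1.03 with the smaller POMC value of 0.47 (95% interval 0.27 to 0.67) also positive. Others of the 31 (Myo18b, Nr0b1, Lrrk1, Sowahc, Cd24a, Zfp503, Fam179a, Megf6, Nanos1, Zfpm2, Ubash3b, Syt12, Ephb6, Slc35e4, Ogg1 and Soga3) had differences from 0.53 to 1.56. Reads of Nlrc5, Il10ra, Parp3, Lrrk1, Cul5, Gcnt2, Megf6, Zfpm2, Ubash3b and Syt12 may include reads of genes that overlap them in the annotation. The interaction call of Nr0b1 was lost in 12 of 12 fits with 1 library left out, and that of Syt12 in 9. It was lost in 8 of 12 for Nlrc5, Parp3, Arid5a, Lrrk1, Ubash3b and Ephb6. For Megf6 it was lost in 6, for Cul5 and Zfpm2 in 4 and for Gcnt2 in 2.

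**Figure D3:**
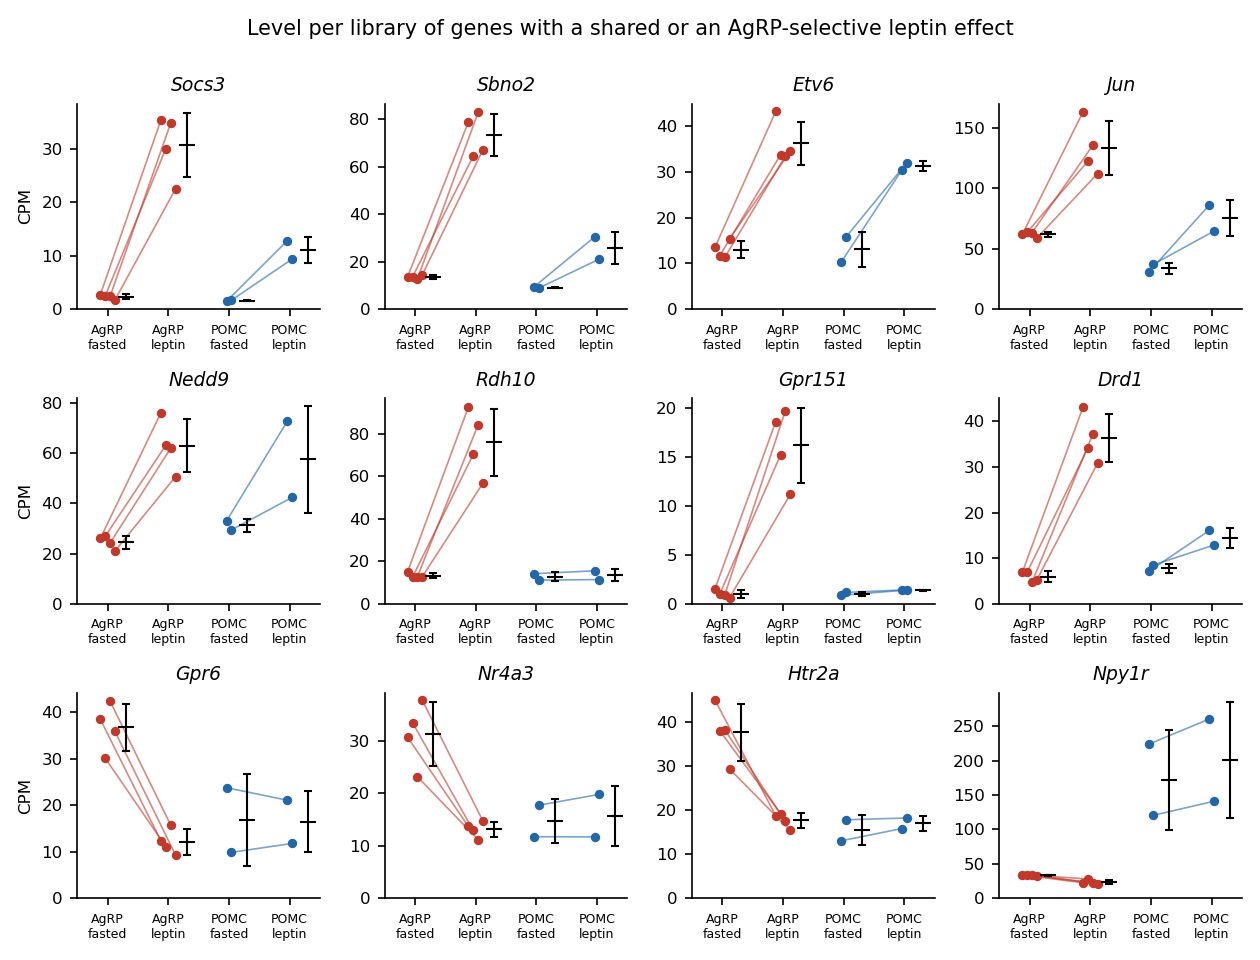
TMM-scaled CPM (vertical axis, from 0) per library of 12 genes in fasted and leptin AgRP (red, n = 4) and POMC (blue, n = 2) libraries, with lines joining same-numbered libraries and black marks for the mean with its SD. Socs3 climbs in both lines. Rdh10 lies between 12.6 and 15.1 CPM fasted and between 56.8 and 92.8 CPM after leptin in AgRP neurons, and between 11.1 and 15.5 CPM in POMC neurons.

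Fosb, Nr4a3, Dusp5 and Nfkbiz were among the genes lowered selectively in AgRP neurons. Fosb (chr7:19302696-19310051, minus strand), an AP-1 subunit induced by activity, fell from 17.4, 16.3, 14.3 and 22.1 CPM to 4.65, 5.79, 6.79 and 6.45 CPM in AgRP neurons, beside 4.37 and 9.87 CPM fasted and 3.92 and 10.8 CPM after leptin in POMC neurons. The AgRP states did not overlap, whereas in POMC neurons the replicates differed more than the states. The difference was -1.55 (SE 0.24, FDR 0.0159). Nr4a3 (chr4:48045153-48086447, plus strand), an orphan nuclear receptor of the same early response, fell from 30.7, 33.5, 23.2 and 37.8 CPM to 13.7, 13.0, 11.2 and 14.7 CPM in AgRP neurons and was at 11.8 and 17.8 and 11.7 and 19.8 CPM in POMC neurons (difference -1.32, SE 0.14, FDR 0.00265). Dusp5, a nuclear phosphatase of ERK, went from 5.31, 4.72, 4.01 and 4.31 CPM to 2.08, 1.27, 1.67 and 1.31 CPM in AgRP neurons and was at 0.805 and 0.864 and 0.894 and 1.42 CPM in POMC neurons, a level where the difference of -1.99 (FDR 0.0368) rests on few counts. Nfkbiz, a nuclear regulator of NF-kappaB, changed by -0.92 and 0.53 in the lines, a difference of -1.44. Without the leptin library of POMC replicate 2 none of these 4 passed, with FDRs of 0.366 for Fosb, 0.0839 for Nr4a3, 0.589 for Dusp5 and 0.141 for Nfkbiz.

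Receptors lowered selectively in AgRP neurons included Gpr6, Htr2a, Npy1r, Sstr5 and P2ry1. Gpr6 (chr10:41069977-41072285, minus strand), a constitutively active receptor that raises cyclic AMP, fell from 38.4, 30.1, 42.3 and 35.8 CPM to 12.3, 11.1, 15.7 and 9.27 CPM. Its POMC pairs were 23.7 and 9.87 CPM fasted and 21.1 and 11.8 CPM after leptin, so that the replicates differed by more than the states. The difference was -1.61 (SE 0.17, FDR 0.00265). Htr2a (chr14:74640840-74709494, plus strand), an excitatory serotonin receptor, fell from 45.0, 38.0, 38.3 and 29.3 CPM to 18.8, 19.2, 17.5 and 15.4 CPM beside 13.0 and 17.8 and 15.8 and 18.2 CPM in POMC neurons (difference -1.23, FDR 0.00265). Npy1r (chr8:66697192-66706792, plus strand), a receptor for NPY, was more abundant in POMC neurons, at 224 and 121 CPM fasted and 260.3 and 141 CPM after leptin. In AgRP neurons it went from 33.9, 33.9, 33.3 and 32.8 CPM to 22.6, 28.2, 22.3 and 21.4 CPM, a change of -0.51, and the difference was -0.73 (FDR 0.0136). Its AgRP call was lost in 6 of 12 fits with 1 library left out and with DESeq2, limma-voom and no block. Sstr5, a somatostatin receptor, differed by -1.13 (call lost in 10 of 12 such fits), and P2ry1, a receptor for adenine nucleotides, by -0.95. The interaction call was lost in 7 of the 12 fits for Npy1r, 4 for P2ry1, 3 for Htr2a and 2 for Gpr6.

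Fam107b fell from 133, 108, 136 and 130.5 CPM to 46.5, 44.2, 47.6 and 34.1 CPM in AgRP neurons beside 20.8 and 21.1 and 18 and 23.3 CPM in POMC neurons (difference -1.53, SE 0.17, FDR 0.00265). Lrrc1, a leucine-rich repeat scaffold protein, fell from 74.2, 64.5, 79.0 and 68.2 CPM to 28.4, 29.3, 32.5 and 26.4 CPM beside 18.3 and 14.7 and 17.1 and 14.9 CPM (difference -1.25, SE 0.12, FDR 0.00167). In both genes the AgRP states were far apart and the POMC states overlapped. Rgs4, which speeds the shut-off of G protein signaling, changed by -0.60 in AgRP neurons and by 0.49 in POMC neurons, where leptin libraries at 181 and 173 CPM lay above fasted ones at 138 and 115 CPM. The potassium channel genes Kcnk1 and Kcnab1 differed by -0.79 and -0.72, the transcriptional regulators Cited2, Sox4 and Creb3l2 by -1.14, -1.12 and -0.80, and Errfi1, an inhibitor of the EGF receptor, by -0.82. The remaining members (Vldlr, Mast4, Plk2, Stk38l, Efnb2, Amigo2, Hs3st1, Mpp3, Noct, Spsb1, Syndig1, Pcdh20, Dse, Lurap1l and Setdb2-phf11c.2) had differences from -1.35 to -0.56. Reads of Dusp5, Fam107b, Kcnk1, Kcnab1, Sox4, P2ry1 and Errfi1 may likewise include those of overlapping genes, as may those of Foxo1, Slc32a1, Dusp10, Tbx19 and Cga. The interaction call was lost in 8 of 12 fits with 1 library left out for Vldlr and Plk2, and in 6 for Rgs4 and Sox4. It was lost in 4 for Kcnk1, Creb3l2 and Errfi1, in 3 for Cited2 and Kcnab1 and in 2 for Fam107b and Lrrc1. Without both pairs that stood apart 13 genes were lowered selectively and 27 raised selectively.

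Some genes were called for the interaction and in neither line alone, where a call needs both the FDR and the fold limit. In all 5 of these with a higher effect in AgRP neurons the AgRP value was positive and the POMC value negative. All 5 passed the FDR in 1 line and missed the fold limit there. That line was POMC for Macf1 (FDR 0.0468). It was AgRP for Dst (FDR 0.0041), Plec (FDR 0.0033), Med13l (FDR 0.0016) and Dusp26 (FDR 1.40e-04). Dst, Plec and Macf1, named after their values were seen, encode very large proteins that link cytoskeletal filaments. Macf1 had 0.047 in AgRP and -0.48 in POMC neurons (difference 0.53, FDR 0.0262), Plec had 0.30 and -0.27 (difference 0.57, FDR 0.0186), and Dst had 0.34 and -0.23 (difference 0.57, FDR 0.0342). Med13l had 0.36 and -0.19, and Dusp26 had 0.44 and -0.072. Of the 14 with a lower effect, 5 are described here. Foxo1, the transcription factor that insulin and leptin signaling restrain, was at 233, 172, 217 and 237 CPM fasted and 182, 133, 152 and 144 CPM after leptin in AgRP neurons, a change of -0.49 (FDR 4.70e-04) that missed the fold limit, and changed by 0.12 in POMC neurons (difference -0.61, FDR 0.0368). Slc32a1, the vesicular transporter of GABA, had -0.10 in AgRP and 0.45 in POMC neurons, from 84.1 and 173 CPM to 131 and 209 CPM (difference -0.55, FDR 0.0481). Dusp10, a phosphatase of JNK and p38, had -0.45 and 0.63, and Btg1, an antiproliferative regulator, had -0.25 and 0.40. Ern1, the stress sensor IRE1, had -0.41 and 0.13. The call of Slc32a1, of Ern1 and of Cga was lost in 10 of 12 fits with 1 library left out. That of Foxo1, of Dusp10 and of Btg1 was lost in 8. The other 9 of the 14 (Cyp51, Slc25a33, Marcks, Rassf8, AK086757, Flrt3, Fam46a, AK140265 and Cga) had differences from -1.79 to -0.52.

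**Figure D4:**
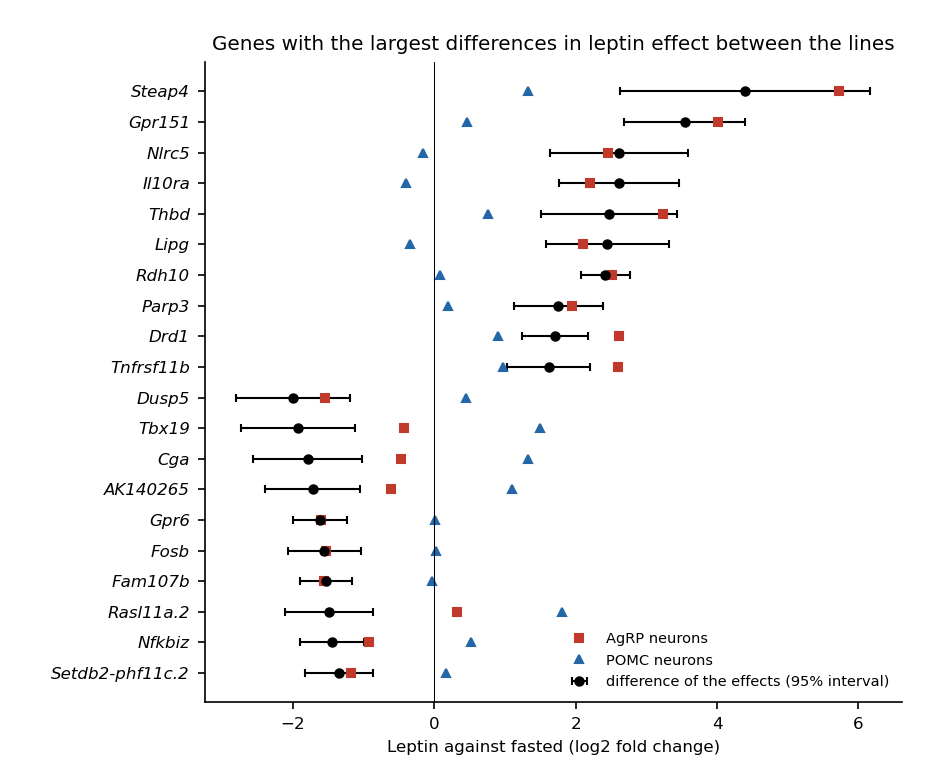
Log2 fold change (horizontal axis) for leptin in AgRP neurons (red squares), in POMC neurons (blue triangles) and their difference with its 95% interval (black), for the 10 largest called differences each way with separated pairs. Rdh10 at 2.42 has a narrow interval and Steap4 at 4.40 a wide one, and the POMC triangles of Gpr6, Fosb and Fam107b lie at 0.011, 0.025 and -0.029 while those of Tbx19, Cga, AK140265 and Rasl11a.2 lie to the right of 0.

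Besides the 5 shared genes, the 11 genes called higher in POMC neurons were Tbx19, Rasl11a.2, Gh, Oacyl, Fshb and Epcam. Tbx19, Gh and Fshb are known from hormone-producing cells of the pituitary, where Pomc is also expressed. Tbx19, the transcription factor of Pomc-expressing pituitary cells, was at 2.79 and 4.03 CPM fasted and 5.13 and 15.4 CPM after leptin in POMC neurons and at no more than 1.05 CPM in any AgRP library (difference -1.92, FDR 0.0434). Its interaction call was lost in 8 of 12 fits with 1 library left out, and its POMC call in 6. Gh, growth hormone, was at 0.0287 and 1.98 CPM and 0 and 8.68 CPM in these POMC states, counts of 1 and 55 and 0 and 348, so that 1 pair held nearly every read. Without POMC replicate 2 its POMC value turned to -3.36 or -3.33, depending on which library was left out, and its interaction to 0.50 or 0.47. Fshb, a gonadotropin subunit, was at 1.72 and 0.828 and 4.36 and 4.61 CPM, and Epcam, an epithelial adhesion molecule, at 1.06 and 1.44 and 2.91 and 6.26 CPM. Oacyl went from 0.862 and 3.38 CPM to 1.04 and 24.5 CPM, again with the rise in replicate 2. The POMC call was lost in 10 of 12 such fits for Fshb, 8 for Epcam and 6 for Oacyl.

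Genes of other pituitary cells were then read, chosen after these values were seen and given without a test. Cga, the common subunit of the glycoprotein hormones, was at 5.001 and 3.71 CPM fasted and 15.1 and 7.13 CPM after leptin in POMC neurons, with a difference between the lines of -1.79 (FDR 0.0492). Prl, prolactin, was at 0 and 0.252 and 0 and 4.64 CPM, Lhb at 0.575 and 0.252 and 2.80 and 1.12 CPM, Pitx1 at 1.21 and 2.05 and 3.46 and 3.17 CPM, and Pou1f1 at 0 and 0 and 0 and 0.125 CPM. In the AgRP libraries Prl did not exceed 0.172 CPM and Lhb did not exceed 0.207 CPM. Wherever a POMC pair held any read of these 5 genes, its leptin library was the higher. Their part in the POMC calls was not tested. Rasl11a.2, a small GTPase, went from 1.09 and 1.12 CPM to 4.41 and 3.29 CPM beside 2.07, 2.08, 1.55 and 1.62 and 2.26, 2.41, 2.34 and 2.05 CPM in AgRP neurons (difference -1.49, FDR 0.0424), and its call was lost in 10 of 12 fits with 1 library left out.

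The genes that leptin raised in AgRP neurons were then read in the POMC libraries, whose own leptin change was not used to call them, although they took part in the filter and the estimate of the spread. Of the 235 genes, 199 (84.7%) had a positive POMC value beside 53.3% of all genes tested, and 175 (74.5%) were higher in both POMC pairs beside 30.1%. Their median log2 fold change was 0.85 in AgRP neurons and 0.34 in POMC neurons, 94 (40%) were higher in POMC neurons at an unadjusted p under 0.05 beside 707 (5.26%) of all genes, and 0 were lower beside 334 (2.48%). For 32 of the 235 the interaction was called, all in the same direction. The other 203 had a POMC median of 0.36, with 159 (78.3%) higher in both pairs. The interaction uses the POMC change, so that change helped to choose these 203, whose values are a description only.

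The genes that leptin lowered in AgRP neurons lay on both sides of 0 in POMC neurons. Of the 137 genes, 80 (58.4%) had a negative POMC value beside 46.7% of all genes, and 46 (33.6%) were lower in both pairs beside 25.8%. The median was -0.69 in AgRP neurons and -0.043 in POMC neurons. At an unadjusted p under 0.05, 9 (6.57%) were lower in POMC neurons, beside 2.48% of all genes. A further 7 (5.11%) were higher, beside 5.26% of all genes. The interaction was called for 33 of the 137. The other 104, chosen in part by their POMC change, had a POMC median of -0.11, with 43 (41.3%) lower in both pairs. The AgRP values chose the 137 genes, and all these values are given as a description.

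**Figure D5:**
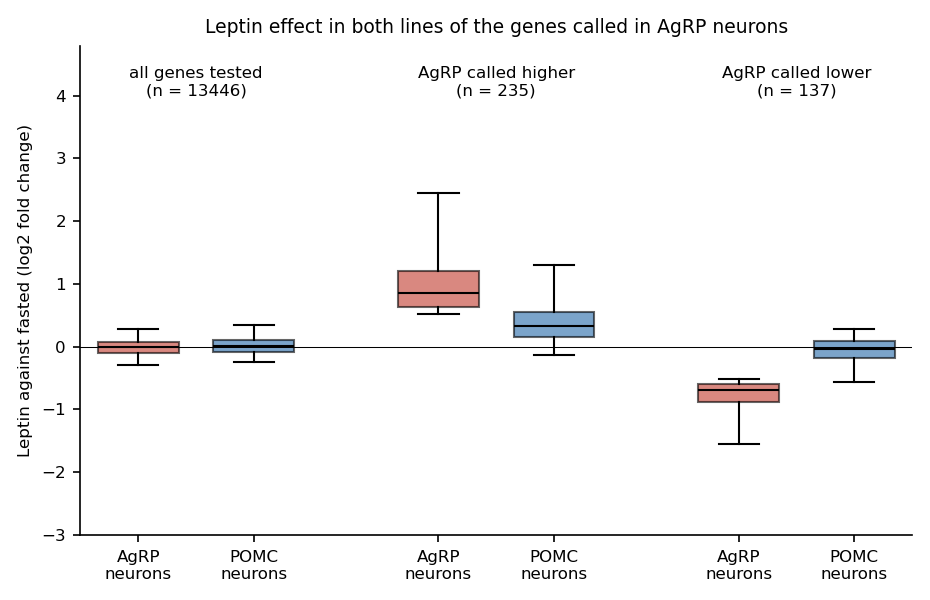
Leptin log2 fold change (vertical axis) in AgRP (red) and POMC (blue) neurons for all 13446 genes tested and for the 235 genes raised and the 137 lowered by leptin in AgRP neurons, as boxes of the median and quartiles with whiskers at the 5th and 95th percentiles. In POMC neurons the genes raised in AgRP neurons are shifted to a median of 0.34, the genes lowered there have a median of -0.043, and all genes have a median of 0.011.

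Gene lists for leptin signaling were read next, by their counts and medians. The median interaction over all genes tested was -0.018. For the interaction edgeR called 0.275% of all genes higher and 0.372% lower. In AgRP neurons it called 1.75% and 1.02%, and in POMC neurons 0.0818% and 0%. At an unadjusted p under 0.05 the interaction was higher for 3.7% of all genes and lower for 5.82%. Of 14 genes of the leptin receptor and JAK-STAT core, 0 were called for the interaction by edgeR, DESeq2 or limma-voom and 2 were higher at an unadjusted p under 0.05, with the largest absolute values in Il6st, Stat6 and Jak1 (0.32, -0.28 and 0.26). Jak2 and Il6st, the kinase of the receptor and the shared chain of interleukin-6 receptors, were called higher in AgRP neurons at 0.52 and 0.52, beside 0.36 and 0.20 in POMC neurons. Lepr itself was at 193, 153, 208 and 149 CPM fasted and 200.2, 170.5, 224 and 116 CPM after leptin in AgRP neurons and at 34.5 and 22.1 and 30.2 and 21.8 CPM in POMC neurons. The receptor transcript was thus lower in every POMC library than in any AgRP library, and its states overlapped in both lines (values of -0.0084 and -0.11).

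Of 11 inhibitors of STAT signaling tested, 5 were called higher in AgRP neurons and 1 in POMC neurons, with medians of 0.27 and 0.41. In both POMC pairs 9 of the 11 were higher, beside 30.1% of all genes. Socs2 was at 1.46 in AgRP and 1.01 in POMC neurons, Cish at 0.74 and 0.59, Socs1 at 1.31 and 0.73, and the phosphatase gene Ptpn1 at 0.52 and 0.24. None of the POMC values of these 4 passed, with FDRs from 0.146 to 0.605, and 0 of the 11 inhibitors were called for the interaction by edgeR or limma-voom, 1 by DESeq2, and 2 were higher at an unadjusted p under 0.05.

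Of 19 acute-phase and STAT3 target genes, 16 were called higher in AgRP neurons and 2 (Sbno2 and Etv6) in POMC neurons, with medians of 2.03 and 0.93. In both POMC pairs 15 were higher and 0 lower, beside 30.1% and 25.8% of all genes. Steap4, Gpr151 and Sbno2 were called for the interaction. Atf3, a stress-induced transcription factor, changed by 2.39 in AgRP neurons and had a POMC value of 2.50 (FDR 0.0905), from 1.55 and 0.756 CPM to 8.31 and 4.81 CPM. Fga, a fibrinogen chain, was at 0.810, 0.520, 0.386 and 0.448 CPM fasted and 27.9, 20.3, 60.9 and 11.2 CPM after leptin in AgRP neurons and at 0.0287 and 0 and 0.375 and 0.175 CPM in POMC neurons, counts of 1 and 0 and 13 and 7, too few to read the difference (SE 3.95). Serpina3n, a secreted protease inhibitor, went from 618, 604, 684 and 597 CPM to 938, 1258, 2174 and 939 CPM in AgRP neurons and from 361 and 212 to 518 and 243 CPM in POMC neurons. The list was drawn up with earlier results of these libraries known.

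Of 19 interferon regulatory factors and interferon-stimulated genes, Nlrc5 alone was called for the interaction. Irf9, Stat2 and Nlrc5 were called higher in AgRP neurons, and in POMC neurons edgeR and limma-voom called 0, DESeq2 called 1 and 4 were higher at an unadjusted p under 0.05. Irf9 and Stat2 act together in a complex that carries the interferon signal, and they were at 1.13 and 1.12 in AgRP neurons beside 0.77 and 0.67 in POMC neurons (FDR 0.129 and 0.397). The medians were 0.073 in AgRP and 0.096 in POMC neurons.

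Of 23 immediate early genes tested, 21 had a negative interaction value and 2 a positive value, with a median of -0.35. Of all 13446 genes tested, 6107 had a positive value. Fosb and Nr4a3 were called lower by edgeR, 6 of the 23 by DESeq2, and 9 were lower and 1 higher at an unadjusted p under 0.05. In 10 of the 23 every AgRP pair difference lay below both POMC pair differences, beside 11.2% of all genes. In AgRP neurons 6 were called lower and Jun higher, and in POMC neurons Jun was called higher. In both POMC pairs 10 genes were higher and 0 lower, beside 30.1% and 25.8% of all genes. Fos went from 35.9, 53.4, 43.9 and 39.7 CPM to 28.2, 30.8, 25.5 and 30.7 CPM in AgRP neurons and from 16.6 and 8.61 to 17.4 and 14.5 CPM in POMC neurons (difference -0.96, FDR 0.0642). Npas4, induced by calcium influx, and Nr4a1 were called lower in AgRP neurons at -2.19 and -1.81, and their differences of -2.05 and -1.84 did not pass (FDR 0.174 and 0.0902). Btg2 had a difference of -1.001 (FDR 0.110).

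Of 19 neuropeptide and prohormone processing genes edgeR called 0 for the interaction, while DESeq2 and limma-voom each called 1 lower and 5 passed an unadjusted p of 0.05, 4 of them lower. Agrp had an interaction value of -0.29, Npy of -0.44, Cartpt of 0.20 and Chga, a granin of secretory granules, of -0.66 (FDR 0.0524). Pomc was at 1484 and 1119 CPM fasted and 1591 and 1418 CPM after leptin in POMC neurons, a value of 0.22 that did not pass (FDR 0.754), and rose by 0.73 in AgRP libraries at a far lower level, from 19.9, 17.3, 27.0 and 29.1 CPM to 29.5, 41.7, 43.8 and 37.3 CPM. Receptors for feeding signals held Drd1 and Npy1r as the 2 of 23 called for the interaction. Mc3r, a melanocortin receptor, was called higher in AgRP neurons at 0.76 beside 0.29 in POMC neurons, and Npy5r was called lower at -0.60 beside -0.32. The interaction did not pass for either (FDR 0.336 and 0.532).

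Of 26 excitability channels edgeR, DESeq2 and limma-voom called 0 for the interaction, with 2 higher and 2 lower at an unadjusted p under 0.05, and with Trpv6 at 1.25 (FDR 0.177) and Kcnj9 at -0.48 (FDR 0.122). Of 16 MAP kinase phosphatase and Sprouty genes, Dusp5 and Dusp10 were called lower, and Spry2 and Spry4, which were called lower in AgRP neurons, had differences of -0.62 and -0.50 that did not pass. Of 27 unfolded protein response genes Ern1 was called, and the chaperone Hspa5 had -0.13. Of 20 genes of PI3K, FoxO and insulin signaling Foxo1 was called. Among markers of other cells, edgeR, DESeq2 and limma-voom called 0 oligodendrocyte, microglial, tanycyte and endothelial genes for the interaction, with 0, 1, 0 and 2 at an unadjusted p under 0.05. Of 9 AgRP and 10 POMC neuron markers edgeR and limma-voom called 0 for the interaction, DESeq2 called 1 AgRP marker lower, and 4 AgRP markers were lower and 3 POMC markers higher at an unadjusted p under 0.05. The tanycyte marker Vim was called higher in AgRP neurons at 0.58 with a POMC value of 0.81.

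Chromatin accessibility of AgRP nuclei, measured in separate samples of the AgRP line, was set beside these classes. The ATAC-seq comparison set 2 leptin against 2 fasted libraries in a fit that also held 2 fed ones, with 8263234 to 17190963 counts in peaks over these 6, and of 102237 peaks tested 2461 (2.41%) opened and 684 (0.669%) closed with leptin. Between 608 and 1771 opened and between 7 and 1458 closed with 1 library left out, and 3937 opened and 1934 closed with the replicate number as a block. The shares that follow rest on the fit without the block. An opened peak lay within 200 kb of the start site for 29.8% of all genes, for 4 of 5 shared genes and for 23 of 30 (76.7%) of the genes raised selectively in AgRP neurons. For the genes raised in AgRP neurons without a called interaction it was 121 of 197 (61.4%). A closed peak lay within that distance for 9.87% of all genes and for 11 of 32 (34.4%) of the genes lowered selectively, beside 36 of 96 (37.5%) of the genes lowered without a called interaction and 1 of 30 (3.33%) of those raised selectively. An opened peak lay near 10 of the 32 (31.2%) genes lowered selectively, close to the share of all genes. Socs3 had 4 opened peaks, 3 of them within 50 kb, Rdh10 and Drd1 had 2 each and Steap4 and Gpr151 1 each, while Fosb and Dusp5 had 1 closed peak each and Lrrc1 had 1 closed and 3 opened. Jun, Gpr6, Nr4a3, Htr2a and Npy1r had none of either kind. No accessibility of POMC nuclei was compared here, so these shares describe AgRP neurons alone.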

How the data were processed

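Ribosome-bound RNA was measured by RNA-seq in 12 libraries, the fasted and leptin groups of both neuron lines. Per the methods, the authors aligned reads with HISAT2 to mm10, counted primary alignments over exons with featureCounts on an annotation modified to limit overlapping transcripts, and deposited raw counts per gene (versions are not given in the sources used here). For ATAC-seq the authors used Bowtie2, MACS2 and bedtools and deposited counts per merged peak. Deposited files of normalized values, CUT&RUN peaks and whole-arcuate RNA were not used here.

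Genes with a mean of the 4 group mean CPMs over 1 were tested with edgeR 4.0.16 (TMM, quasi-likelihood, prior count 2 for CPM on the log scale) in R 4.3.3, with the replicate number within each line as a block. The labels give the numbers. Residuals of same-numbered libraries of a line correlated at 0.537 to 0.815 in all 6 pairs, other AgRP pairs at -0.687 to 0.596, and AgRP replicate 4 with POMC replicate 2 at 0.529 to 0.640. With 2 libraries in each POMC group their residuals are mirror images, so both POMC pairs give the same value of 0.771. The values of an AgRP library with the 2 POMC replicates likewise differ only in sign. A gene was called where its FDR was under 0.05 and its log2 fold change exceeded 0.5 in size. The SE is the absolute log2 fold change over the square root of F. ATAC-seq peaks with a mean over 1 CPM were tested the same way over 6 AgRP libraries (2 fed, 2 fasted, 2 leptin), with no block. A fit that left 1 library or pair in a group took its spread from the others. The steps were tested on simulated counts.

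Depth was 29901460 to 54511107 counts per RNA library, and floors of 3 counts cover counting error only. The alternatives were no block, DESeq2 1.42.0, voom in limma 3.58.1, library size for TMM, no filter, fed libraries added, AgRP replicates 1 and 2 alone, each library left out and, added after seeing the data, both pairs that stood apart left out. Named genes were the 10 with the largest called difference each way whose AgRP and POMC pairs did not overlap, the genes called in both lines or in POMC neurons, called members of the 18 gene lists and genes the study names. The comparison, its genes and the lists were chosen with earlier results of these data known. Promoter windows and gene positions came from RefSeq and the reference annotation of GRCm38, and sequence handling used Python 3.11.15 with pandas 2.3.3. Results of some genes are not reported here.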

Additional observations from a re-analysis of the deposited data

Results flagged for a closer look

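In groups of 4 libraries, 6 of 118 gene and group sets (5.08%) held 1 library far from the other 3, and chance gives about 1 in 20 (5%). The libraries were Etv6 at 43.2 CPM in a leptin AgRP library, Rdh10 at 15.1 CPM, Tnfrsf11b at 0.689 CPM, Nr0b1 at 2.31 CPM and Cga at 2.66 CPM in a fasted AgRP library each, and Megf6 at 28.4 CPM in a leptin AgRP library.

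The leptin effect differed between the lines by the interaction test for 51 of the named genes. With the larger effect in AgRP neurons, the log2 differences were Steap4 at 4.40, Gpr151 at 3.54, Nlrc5 at 2.61, Il10ra at 2.61, Thbd at 2.47, Lipg at 2.45, Rdh10 at 2.42 and Parp3 at 1.76. They were Drd1 at 1.71, Tnfrsf11b at 1.62, Nr0b1 at 1.52, Lrrk1 at 1.45, Cul5 at 1.30, Arid5a at 1.15, Gcnt2 at 1.03 and Sbno2 at 0.94. They were Megf6 at 0.84, Htr1a at 0.79, Zfpm2 at 0.77, Ubash3b at 0.76, Syt12 at 0.67 and Ephb6 at 0.61. With the lower effect in AgRP neurons, the log2 differences were Gh at -4.96, Dusp5 at -1.99, Tbx19 at -1.92, Cga at -1.79, Gpr6 at -1.61, Fosb at -1.55, Fam107b at -1.53, Rasl11a.2 at -1.49, Nfkbiz at -1.44 and Nr4a3 at -1.32. They were Lrrc1 at -1.25, Htr2a at -1.23, Cited2 at -1.14, Sstr5 at -1.13, Sox4 at -1.12, Rgs4 at -1.09, Dusp10 at -1.08, P2ry1 at -0.95, Errfi1 at -0.82 and Creb3l2 at -0.80. They were Kcnk1 at -0.79, Npy1r at -0.73, Kcnab1 at -0.72, Btg1 at -0.66, Plk2 at -0.62, Foxo1 at -0.61, Vldlr at -0.56, Slc32a1 at -0.55 and Ern1 at -0.53. The groups of 2 POMC libraries were too small to look for a library far from the rest, and the difference for Gh rested on 1 POMC pair.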

How the results depend on the processing

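For the interaction 37 genes were called higher and 50 lower. With no replicate block the counts were 3 and 0, and within lines 118 higher and 52 lower in AgRP neurons and 3 higher and 0 lower in POMC neurons, with 2 shared, 3 and 0 AgRP-selective higher and lower, and 0 POMC-selective. DESeq2 called 75 higher and 91 lower for the interaction, 30 higher and 3 lower in POMC neurons, 21 shared, 57 and 54 AgRP-selective and 5 POMC-selective. POMC neurons had 17 higher, 1 lower and 12 shared genes with the fed libraries added, and 17 higher, 2 lower and 10 shared with AgRP replicates 1 and 2 alone, where 1 gene was POMC-selective higher and 1 lower. With no filter or with voom 4 were POMC-selective higher. Without both pairs that stood apart the interaction had 32 and 35 calls, holding 18 of the 37 and 18 of the 50 genes, and POMC neurons had 39 higher and 1 lower, with 18 shared, 13 AgRP-selective lower, 11 POMC-selective higher and 6 opposite.

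With 1 library left out, the interaction gave 1 to 83 genes higher and 1 to 62 lower, AgRP neurons 193 to 281 and 111 to 161, and POMC neurons 3 to 16 and 0 to 1, while shared genes numbered 1 to 8 higher and 0 lower, AgRP-selective ones 1 to 74 and 0 to 46, POMC-selective ones 0 to 5 and 0 to 1, and opposite ones 0 to 1. The lowest interaction counts were those without either library of POMC replicate 2, and the highest count of genes called higher was without AgRP fasted replicate 4. Gh turned direction without the fasted or the leptin library of POMC replicate 2 (interaction 0.50 and 0.47, POMC -3.36 and -3.33) and without both pairs that stood apart (0.86 and -3.44), so that with 1 library left out its interaction ran from -5.61 to 0.50 and its POMC value from -3.36 to 2.13. ATAC-seq peaks numbered 3937 opened and 1934 closed with a replicate block, and 608 to 1771 and 7 to 1458 with 1 library left out. The cause was not tested in any of these.

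Of 136 calls of named genes, 65 were kept with no block, 130 with DESeq2, 131 with voom, 127 with library size, 128 with fed libraries, 134 with no filter, 106 with AgRP replicates 1 and 2 alone and 96 without the pairs that stood apart. Scaling moved the median of all genes by at most 0.0182 on the log2 scale. Depth limits genes with few POMC counts, such as Steap4, Dusp5, Fga and Gh.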
